A study of Homo sapiens with 6 samples.

Results

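Aminoacyl-tRNA synthetases are the enzymes that join each amino acid to its transfer RNA before the ribosome can use it. Genes were taken by name, as all symbols made of 1 letter followed by ARS, with or without a final 1 or 2, together with FARSA, FARSB, EPRS, AIMP1, AIMP2 and EEF1E1. This gave 40 genes of the 60725 rows in each table. They comprise 20 genes of cytosolic enzymes, 17 genes whose symbol ends in 2 and which encode mitochondrial enzymes, and 3 genes of scaffold proteins without synthetase activity. Values were read in 6 libraries of poly-A RNA from tumours grown in animals from MHCC97L, an established human hepatocellular carcinoma line. The 3 control libraries are labelled Ctrl, and the 3 treated libraries are labelled rhLUM, for recombinant human lumican, a secreted proteoglycan of the extracellular matrix. All 6 share the cell line and the xenograft setting. The sources used here do not give the host strain, the dose, the time or the number of tumours behind the libraries, so p-values measure only the spread between these libraries, which may be technical. The comparison asks which of these genes differ in the tumour when lumican is supplied.

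Each synthetase recognises 1 amino acid, with the exception of EPRS, a single protein that charges both glutamate and proline. The cytosol and the mitochondrion use separate sets of enzymes, although GARS and KARS each encode both forms and QARS has no mitochondrial counterpart among these genes. In human cells several cytosolic synthetases sit together in the multisynthetase complex, held by the scaffold proteins AIMP1, AIMP2 and EEF1E1. Many cytosolic synthetase genes are textbook targets of ATF4, the transcription factor that acts when the translation factor eIF2 alpha is phosphorylated, for instance by the kinase GCN2 (EIF2AK4), which senses uncharged transfer RNA. WARS is also well known as a gene induced by interferon gamma.

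Levels are given in TPM, the share of a library's transcripts per length, as deposited. All 40 genes passed the filter of a mean of at least 1 TPM. The scale keeps no sequencing depth, which is therefore unknown. Over the 14781 genes tested, the median log2 fold change (rhLUM minus Ctrl, on log2(TPM + 1)) was 0.16, and median-of-ratios scaling of the libraries shifted this median by -0.18. Mitochondrially encoded transcripts took 20.6% of TPM in Ctrl and 14.4% in rhLUM. Marker sums also differed: 14 markers of blood, vessel and stromal cells summed to 61.2 to 62.5 TPM in Ctrl and 93.0 to 95.9 in rhLUM. Most of that sum was CD68 and PECAM1, while 8 of the 14 markers, among them PTPRC, CD3E and VWF, had a mean under 1 TPM. The endothelial markers went both ways, since PECAM1 rose from 16.4 to 25.3 TPM and CDH5 fell from 3.10 to 0.45 TPM. Reads were aligned to the human genome, so these markers do not directly measure cells of the host animal. The 9 liver and hepatoma markers summed to 2668 to 2690 and 4711 to 4733 TPM, and GPC3 and APOA1 among them had a mean under 1 TPM. KRT8 (1060 against 2474 TPM) and ALB (289 against 825 TPM) carried that difference, while SERPINA1 went from 379 to 208 TPM and AFP was not called. The part of these differences in the results below was not tested. The labels name no sequencing batch.

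Most cytosolic synthetase genes were higher in the rhLUM tumours, and they moved by unequal amounts. IARS, for isoleucine, changed the most and became the second most abundant synthetase transcript. WARS (tryptophan), AARS (alanine), SARS (serine) and VARS (valine) followed, whereas MARS (methionine) and DARS (aspartate), which ranked 1 and 3 in Ctrl, fell. Of the 20 genes, 15 were higher and 2 lower (limma, Benjamini-Hochberg adjusted p under 0.05), or 75.0% and 10.0%, against 44.5% and 22.3% of all genes tested. Their median log2 fold change was 0.42, against 0.16 for all genes. With the libraries scaled by median of ratios, 12 genes were higher and 3 lower, against 32.7% and 32.5% of all genes, and the median was 0.22. Over all genes with a known transcript length, the log2 fold change was correlated with that length (Spearman correlation 0.32). Correction of the values for the length and GC content of transcripts gave 12 higher and 4 lower, against 33.8% and 32% of 12850 genes. More of them were higher than lower under each scaling tried. In bulk tumour RNA a change in the number of cells of a type and a change in RNA per cell cannot be told apart. The 3 rhLUM libraries lay wholly above the 3 Ctrl libraries for 16 genes and wholly below for 2, against 47% and 24.3% of all genes.

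**Figure D1:**
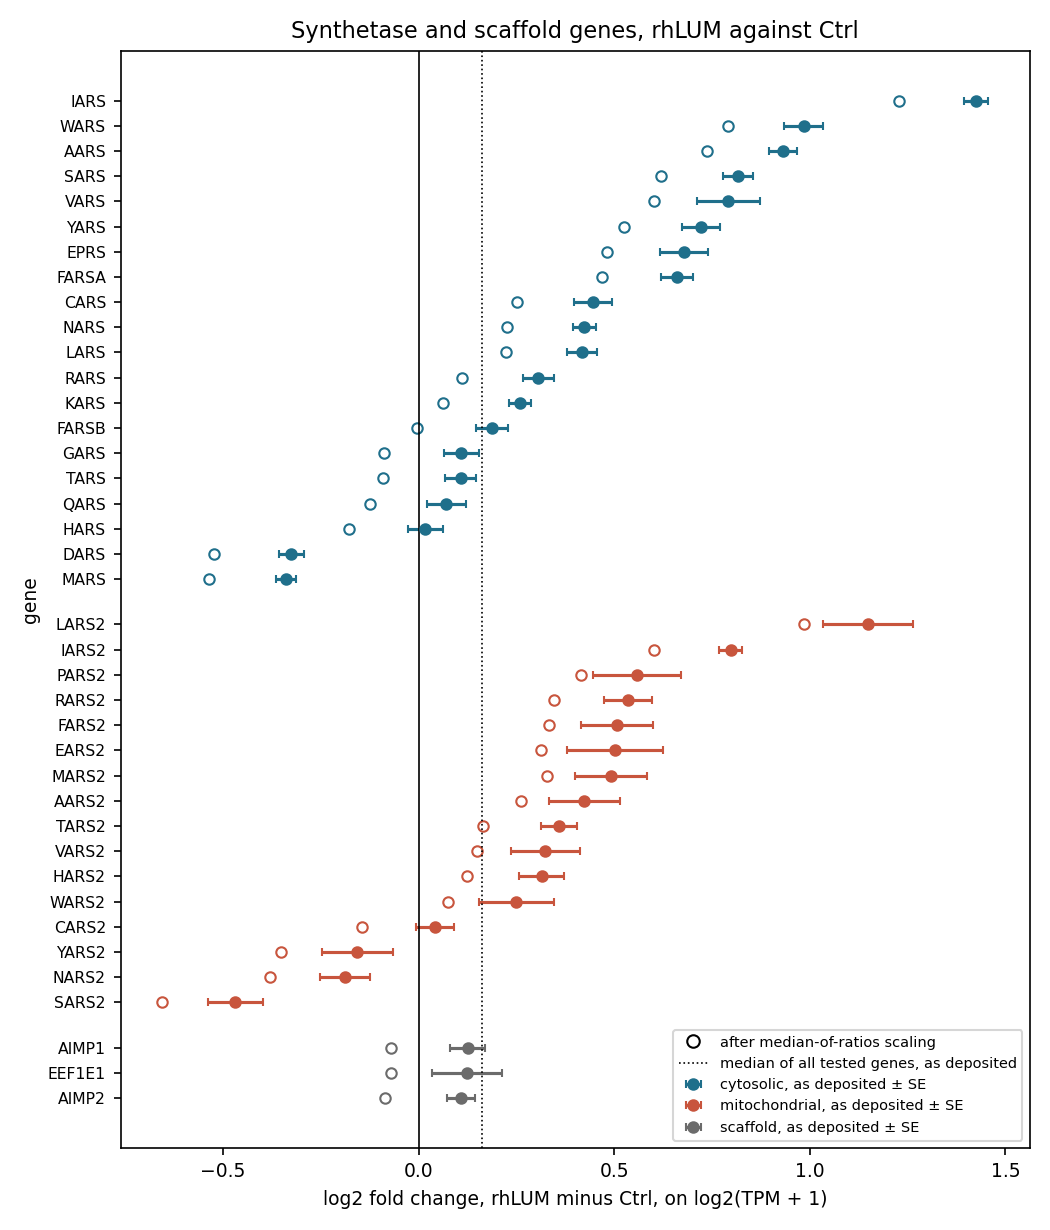
Log2 fold change of the synthetase and scaffold genes, with 1 mitochondrial gene not shown (horizontal axis, rhLUM minus Ctrl on log2(TPM + 1)), filled points with SE as deposited and open points after median-of-ratios scaling. IARS stands farthest to the right at 1.43, and SARS2 farthest to the left at -0.47.

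IARS, a protein-coding gene, spans 92210207 to 92293756 on the minus strand of chromosome 9 (GRCh38). It stood at 53.8, 57.0 and 56.3 TPM in the Ctrl libraries A, B and C and at 152, 150.1 and 152 TPM in the rhLUM libraries. The groups were far apart, and the spread within each was small. This is a log2 fold change of 1.43 with an SE of 0.03 (limma adjusted p = 1.07e-07). The change was 1.23 after scaling and 1.04 after the length and GC correction. The rank of IARS by TPM among the 40 genes went from 11 to 2.

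WARS was at 28.7, 25.8 and 27.1 TPM in Ctrl and at 56.6, 53.0 and 54.6 in rhLUM, a log2 fold change of 0.98 (limma adjusted p = 3.46e-06). AARS was at 46.6, 43.7 and 46.1 TPM and at 88.9, 87.0 and 87.0 TPM, a log2 fold change of 0.93 (limma adjusted p = 1.02e-06). SARS went from 39.9, 42.1 and 40.8 TPM to 70.8, 75.4 and 72.3 TPM (log2 fold change 0.82). In these genes every rhLUM library lay well above every Ctrl library. VARS was at 18.9, 17.2 and 21.4 TPM against 35.9, 32.7 and 32.9 TPM (0.79). YARS, the tyrosine enzyme, was at 50.9, 51.8 and 49.6 TPM against 78.9, 86.3 and 88.3 TPM (0.72). Both of them also had groups that did not overlap.

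EPRS went from 58.9, 65.6 and 55.3 TPM to 98.1, 97.0 and 93.9 TPM (log2 fold change 0.68, limma adjusted p = 5.60e-05), and corrected for transcript length and GC content the change was 0.28. The phenylalanine enzyme is built from 2 kinds of subunit, encoded by FARSA and FARSB, and these did not move alike. FARSA rose from 19.7, 19.8 and 20.3 TPM to 31.9, 32.9 and 31.2 TPM (0.66). FARSB was at 23.5, 24.6 and 24.7 TPM against 27.6, 28.1 and 27.5 TPM, a log2 fold change of 0.19 (limma adjusted p = 0.00513) that was -0.0036 after scaling, where the call was lost. In Ctrl the FARSA transcript was the less abundant of the pair and in rhLUM the more abundant, since the log2 ratio of FARSA to FARSB within a library went from -0.28 ± 0.032 to 0.21 ± 0.023 (SD, n = 3 per group). This ratio does not depend on how a library is scaled.

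CARS, for cysteine, NARS, for asparagine, and LARS, for leucine, rose by less, with log2 fold changes of 0.45, 0.42 and 0.42. NARS was the most abundant synthetase transcript in rhLUM, at 179 ± 5.21 TPM against 133 ± 1.47 in Ctrl (SD, n = 3). The length and GC correction gave 0.25 for CARS and 0.17 for NARS, both still called, and the rise of LARS was then not called (log2 fold change 0.02, adjusted p = 0.619). RARS, for arginine (0.31), and KARS, for lysine (0.26), were also called higher. After scaling RARS was at 0.11 and KARS at 0.06, and the call of KARS was lost. Scaled by the upper quartile instead, RARS was at 0.075 and no longer passed the test (adjusted p = 0.124).

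MARS, on chromosome 12 at 57475445 to 57517569 (plus strand), was at 163, 166 and 171 TPM in Ctrl and 131, 132 and 132 TPM in rhLUM. DARS, on chromosome 2 at 135906677 to 135986100 (minus strand), was at 131, 125 and 130.2 TPM in Ctrl and 99.7, 105 and 103 TPM in rhLUM. All rhLUM libraries lay below all Ctrl libraries for both genes. The log2 fold changes were -0.34 for MARS (limma adjusted p = 2.24e-05) and -0.33 for DARS (limma adjusted p = 8.87e-05), and after scaling they were -0.54 and -0.52. Both enzymes belong to the multisynthetase complex, as does IARS.

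The remaining cytosolic genes stayed close to their Ctrl level. TARS, for threonine, was at 124, 120.3 and 116 TPM in Ctrl and 128, 135 and 126 TPM in rhLUM, a log2 fold change of 0.11 that only just passed the test (limma adjusted p = 0.0438) and was -0.09 after scaling and -0.25 after the length and GC correction, where it was called lower. The TARS call was lost without Ctrl library B (adjusted p = 0.0981) or C (0.129) and without rhLUM library A (0.0682) or B (0.121). GARS, for glycine, had a log2 fold change of 0.11 (adjusted p = 0.0601, but 0.028 without rhLUM library C), QARS, for glutamine, 0.07 (adjusted p = 0.25) and HARS, for histidine, 0.02 (adjusted p = 0.758). HARS was at 42.3, 45.1 and 42.5 TPM in Ctrl and 44.4, 45.3 and 41.8 in rhLUM, so its groups overlapped. After scaling HARS was called lower, at -0.18.

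**Figure D2:**
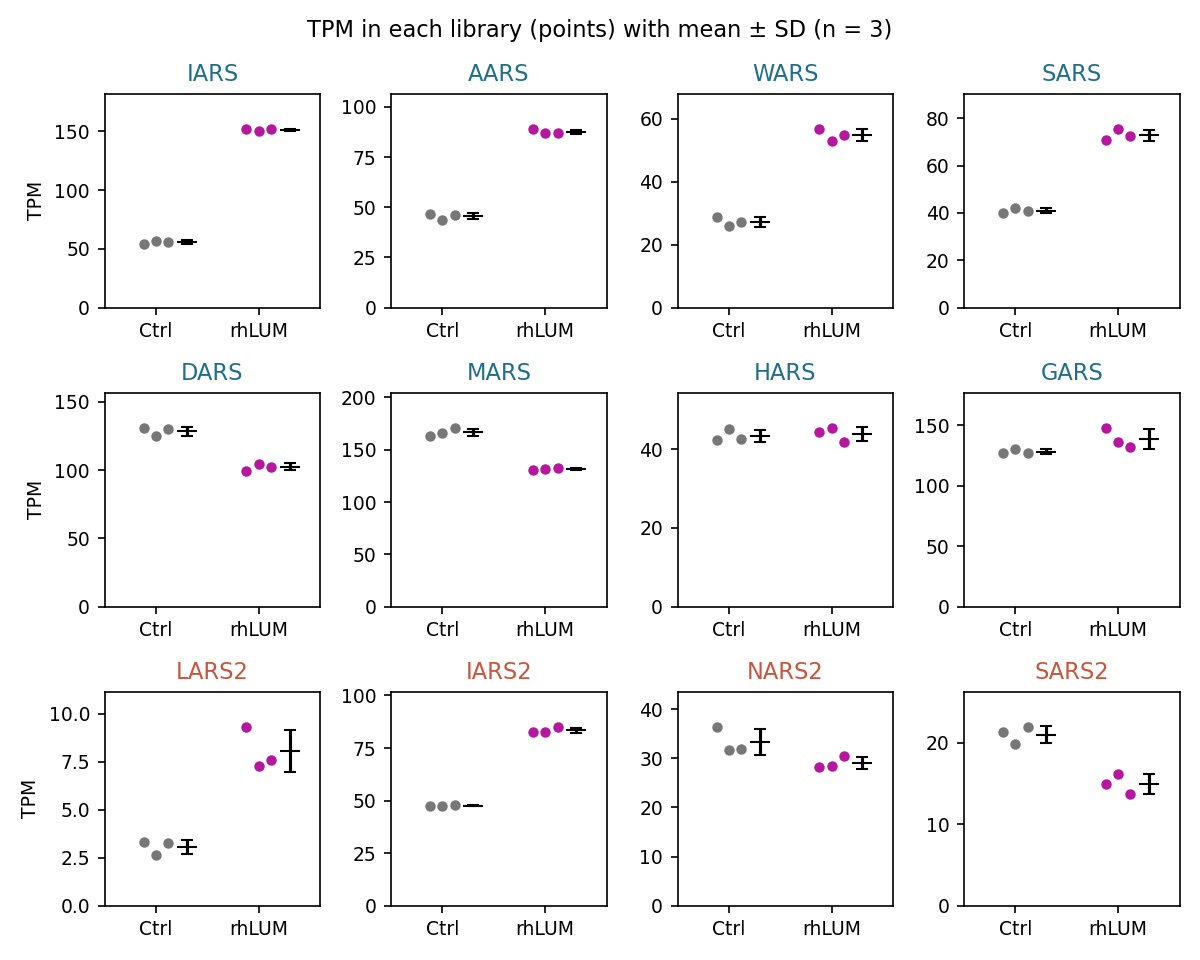
TPM in each library (points, Ctrl grey and rhLUM magenta) with the group mean and SD (n = 3 per group) for 8 cytosolic genes (blue titles) and 4 mitochondrial genes (red titles), each with its own vertical axis from 0. IARS, AARS, WARS, SARS, LARS2 and IARS2 stand higher in rhLUM, DARS, MARS, NARS2 and SARS2 lower, and HARS overlaps.

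Because many of these genes are known ATF4 targets, their promoters were searched for the composite element that ATF4 binds with C/EBP proteins, spelled TGATGNAA, on both strands of RefSeq windows from 250 bases before to 50 bases after each annotated start (GRCh38.p14). Of the 40 genes 33 had a window. The element was present in 7 of 16 cytosolic genes with a window (AARS, CARS, GARS, IARS, MARS, NARS and TARS), or 43.8%, against 4.46% of 27305 genes and 3.62% of 35116 windows. It was present in 1 of 14 mitochondrial genes, YARS2, and in none of the 3 scaffold genes. The narrower spelling TGATGCAA was found in 6 of the 16 cytosolic genes and in 1.08% of all genes. Windows from 200 bases before to 30 bases after the start are shown 5′ to 3′ in the direction of the gene, because these 6 genes share the narrower spelling. Whether the element has a part in any change was not tested. Capitals mark the element, which reads TTGCATCA where it lies on the opposite strand. The 6 windows are chr9:92293668-92293897 for IARS, chr16:70289477-70289706 for AARS, chr11:3057394-3057623 for CARS, chr18:57621807-57622036 for NARS, all on the minus strand, and chr5:33440765-33440994 for TARS and chr12:57487868-57488097 for MARS, both on the plus strand.
IARS: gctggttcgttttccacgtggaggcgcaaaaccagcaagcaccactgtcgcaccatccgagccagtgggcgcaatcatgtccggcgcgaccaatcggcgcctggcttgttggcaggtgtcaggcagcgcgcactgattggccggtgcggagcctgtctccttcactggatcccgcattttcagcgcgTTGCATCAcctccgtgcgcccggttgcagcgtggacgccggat
AARS: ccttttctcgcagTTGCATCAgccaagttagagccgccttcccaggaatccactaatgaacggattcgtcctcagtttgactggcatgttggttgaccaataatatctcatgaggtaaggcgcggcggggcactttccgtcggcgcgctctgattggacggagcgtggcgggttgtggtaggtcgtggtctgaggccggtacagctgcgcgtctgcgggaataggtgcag
CARS: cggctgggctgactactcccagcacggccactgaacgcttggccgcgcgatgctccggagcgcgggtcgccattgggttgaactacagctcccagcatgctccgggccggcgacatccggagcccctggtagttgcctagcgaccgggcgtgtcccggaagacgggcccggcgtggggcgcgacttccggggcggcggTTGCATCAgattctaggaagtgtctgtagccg
NARS: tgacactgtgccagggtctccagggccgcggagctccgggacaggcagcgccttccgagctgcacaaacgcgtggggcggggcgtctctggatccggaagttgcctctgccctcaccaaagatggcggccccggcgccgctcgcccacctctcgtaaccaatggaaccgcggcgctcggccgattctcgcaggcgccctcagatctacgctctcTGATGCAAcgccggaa
TARS: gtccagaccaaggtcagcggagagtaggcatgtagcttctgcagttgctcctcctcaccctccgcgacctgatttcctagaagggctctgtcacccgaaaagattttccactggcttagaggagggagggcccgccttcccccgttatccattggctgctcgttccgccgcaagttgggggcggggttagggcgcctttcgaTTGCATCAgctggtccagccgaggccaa
MARS: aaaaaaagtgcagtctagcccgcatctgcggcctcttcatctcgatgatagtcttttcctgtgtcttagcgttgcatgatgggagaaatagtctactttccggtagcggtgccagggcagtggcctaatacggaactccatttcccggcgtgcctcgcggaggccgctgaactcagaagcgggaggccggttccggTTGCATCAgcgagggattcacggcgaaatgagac

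The element starts 13 bases before the annotated start in IARS, 2 before it in CARS and 4 before it in MARS, and at base 3 after it in TARS and base 15 in NARS. In AARS it lies farther upstream, starting 187 bases before the start. The genes that carry it had log2 fold changes of 1.43 (IARS), 0.93 (AARS), 0.45 (CARS), 0.42 (NARS), 0.11 (TARS) and -0.34 (MARS). GARS, whose element reads TTTCATCA, was at 0.11. A match of letters describes the sequence only, and no binding was measured.

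The WARS window at chr14:100375318-100375547 (minus strand) is shown because it was the 1 cytosolic promoter with a match to the core of the interferon-stimulated response element, which is GAAA, any 2 bases and GAAA again, and it also matched the interferon gamma activated site TTCNNNGAA, capitals marking both.
WARS: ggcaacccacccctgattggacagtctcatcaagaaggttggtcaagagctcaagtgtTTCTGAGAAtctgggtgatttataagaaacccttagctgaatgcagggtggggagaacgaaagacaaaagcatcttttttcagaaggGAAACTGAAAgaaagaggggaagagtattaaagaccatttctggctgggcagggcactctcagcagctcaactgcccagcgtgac

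These 2 spellings were found in 4.38% and 9.38% of all genes. The first starts 55 bases and the second 142 bases before the WARS start. The second was also found in CARS and TARS, hence in 3 of 16 cytosolic genes (18.8%), and in PARS2 and WARS2. The first was also found in EARS2. Other genes known to respond to interferon gamma went the opposite way to WARS. Of 10 listed, 5 passed the filter, and all 5 were lower, against 22.3% of all genes. All 5 were also lower after scaling. GBP2, a guanylate-binding protein, went from 94.7 ± 1.70 to 33.8 ± 2.98 TPM (SD, n = 3), a log2 fold change of -1.46, PSMB9, an immunoproteasome subunit, fell by 1.05 on the log2 scale, GBP1 by 0.62, IRF1 by 0.39 and the peptide transporter TAP1 by 0.36.

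The genes of the mitochondrial enzymes showed a similar mix of rises and falls. LARS2, for leucine, and IARS2, for isoleucine, were among those that rose most, and SARS2, for serine, fell. Of 17 genes 12 were higher and 2 lower (70.6% and 11.8%, against 44.5% and 22.3% of all genes), and their median log2 fold change was 0.42. After scaling 9 were higher and 4 lower, against 32.7% and 32.5%, and the median was 0.26. After the length and GC correction 9 were higher and 3 lower, against 33.8% and 32%. More were higher than lower under each scaling tried. The groups did not overlap for 13 genes in the upward and 2 in the downward direction, against 47% and 24.3% of all genes.

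LARS2, on chromosome 3 at 45388506 to 45549421 (plus strand), was a low transcript at 3.29, 2.66 and 3.26 TPM in Ctrl that reached 9.29, 7.27 and 7.58 TPM in rhLUM. This is a log2 fold change of 1.15 with an SE of 0.12 (limma adjusted p = 9.57e-05), or 0.82 after the length and GC correction. Every rhLUM library lay well above every Ctrl library. IARS2, the most abundant mitochondrial synthetase transcript in rhLUM, was at 47.4, 47.5 and 47.9 TPM against 82.7, 82.8 and 84.9 TPM, a log2 fold change of 0.80 (limma adjusted p = 8.86e-07), or 0.49 after the length and GC correction. The genes of the cytosolic and of the mitochondrial isoleucine enzyme were thus both among those that rose most in their set.

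A middle group had log2 fold changes of 0.31 to 0.56 and was called higher. It comprised PARS2 (proline, 0.56), RARS2 (arginine, 0.53), FARS2 (phenylalanine, 0.51), EARS2 (glutamate, 0.50), MARS2 (methionine, 0.49), AARS2 (alanine, 0.42), TARS2 (threonine, 0.36), VARS2 (valine, 0.32) and HARS2 (histidine, 0.31). EARS2 was the most scattered of them, at 13.5, 13.2 and 17.3 TPM in Ctrl and 21.0, 23.8 and 18.6 TPM in rhLUM. The calls of EARS2, VARS2 and HARS2 were lost after scaling and after the length and GC correction, that of AARS2 when libraries were scaled by the upper quartile (adjusted p = 0.0562), and that of VARS2 also without rhLUM library A (adjusted p = 0.0501). PARS2 was the lowest transcript of the whole family, at 2.07, 2.32 and 1.74 TPM in Ctrl and 3.52, 3.60 and 3.29 TPM in rhLUM.

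SARS2, on chromosome 19 at 38915266 to 38930896 (minus strand), was at 21.3, 19.8 and 21.9 TPM in Ctrl and 14.9, 16.1 and 13.7 TPM in rhLUM. Its groups did not overlap, and they differed by -0.47 on the log2 scale with an SE of 0.07 (limma adjusted p = 8.00e-04), or by -0.66 after scaling. NARS2, for asparagine, was at 36.4, 31.7 and 31.8 TPM against 28.2, 28.5 and 30.4 TPM, a smaller difference of -0.19 (limma adjusted p = 0.0342). The NARS2 call was lost without Ctrl library A (adjusted p = 0.0778), without rhLUM library A (0.0977) and without rhLUM library B (0.0963). YARS2, for tyrosine, was at 52.3, 55.6 and 62.3 TPM against 54.6, 53.0 and 44.9 TPM. Its groups overlapped and it was not called (log2 fold change -0.16, adjusted p = 0.164), although it was called lower after scaling, at -0.35. CARS2, for cysteine (0.04, adjusted p = 0.471), and WARS2, for tryptophan (0.25, adjusted p = 0.0514), were not called either. WARS2 passed the test without Ctrl library C (adjusted p = 0.0487) and without rhLUM library B (0.0397).

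The scaffold genes changed little. AIMP1 was at 71.4, 68.2 and 75.7 TPM in Ctrl and 77.2, 76.8 and 80.9 TPM in rhLUM, a log2 fold change of 0.13 (limma adjusted p = 0.0437). AIMP2 was at 52.4, 51.5 and 51.6 TPM against 55.0, 54.7 and 58.2 TPM, a log2 fold change of 0.11 (limma adjusted p = 0.0327). EEF1E1 was at 49.6, 41.9 and 39.8 TPM against 45.1, 46.3 and 51.5 TPM and was not called (0.12, adjusted p = 0.255). After scaling all 3 had negative values, from -0.09 to -0.07, and none was called. The rises of AIMP1 and AIMP2 were smaller than the 0.16 of the median gene. The AIMP1 call held when Ctrl library C was left out (adjusted p = 0.0158) and was lost when any other library was (0.0669 to 0.128). The AIMP2 call was lost without rhLUM library C or any 1 of the Ctrl libraries (0.0573 to 0.0754), and EEF1E1 passed the test without Ctrl library A (0.0343).

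The 8 synthetases of the multisynthetase complex (DARS, EPRS, IARS, KARS, LARS, MARS, QARS and RARS) held genes of both directions, with 5 higher, 2 lower and a median log2 fold change of 0.28. Of the 12 cytosolic genes outside the complex 10 were higher and none lower, with a median of 0.55. The 2 lower genes of the complex are 25.0% of its 8, near the 22.3% of all genes tested, of which 44.5% were higher. After scaling these counts were 4 and 2 of 8, and 8 and 1 of 12, against 32.7% and 32.5% of all genes. Synthetases fall into 2 structural classes that bind their amino acid in different ways. Class I enzymes of both compartments had 13 genes higher and 1 lower of 18, and class II enzymes 13 higher and 3 lower of 18, leaving out EPRS, which carries a domain of each class. After scaling 11 class I genes were higher and 3 lower, and 9 class II genes were higher and 4 lower. The difference between these groups of genes was not tested.

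The summed level of the family rose in both compartments by a like proportion. Cytosolic synthetase transcripts summed to 1355, 1366 and 1346 TPM in Ctrl and to 1723, 1748 and 1708 TPM in rhLUM, a mean difference of 27.3%. The mitochondrial sums were 307, 306 and 317 TPM in Ctrl and 398, 398 and 384 TPM in rhLUM, a difference of 26.7%. After scaling the differences were 10.9% and 10.4%. The cytosolic sum was 4.37 ± 0.12 times the mitochondrial sum in Ctrl and 4.39 ± 0.060 times in rhLUM (SD, n = 3), a difference smaller than the spread between libraries. The scaffold sum was 167 ± 5.92 against 182 ± 7.53 TPM, a difference of 8.71% as deposited and of -5.31% after scaling.

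Within that sum the composition changed, a measure that does not depend on the scaling of a library. IARS made up 4.11 ± 0.12% of cytosolic synthetase TPM in Ctrl, against 8.76 ± 0.16% with rhLUM (SD, n = 3). MARS went from 12.3 ± 0.34% to 7.62 ± 0.11%, and DARS from 9.48 ± 0.30% to 5.93 ± 0.12%. GARS and TARS, whose own levels moved little, made up smaller shares in rhLUM, 8.03% against 9.46% and 7.51% against 8.87%. Among mitochondrial enzymes IARS2 went from 15.3 ± 0.22% to 21.2 ± 0.77% and replaced YARS2 as the most abundant, which went from 18.3 ± 1.30% to 12.9 ± 1.07%. SARS2 went from 6.77 ± 0.25% to 3.79 ± 0.24%. In each of these genes the 3 rhLUM libraries lay on 1 side of the 3 Ctrl libraries.

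**Figure D3:**
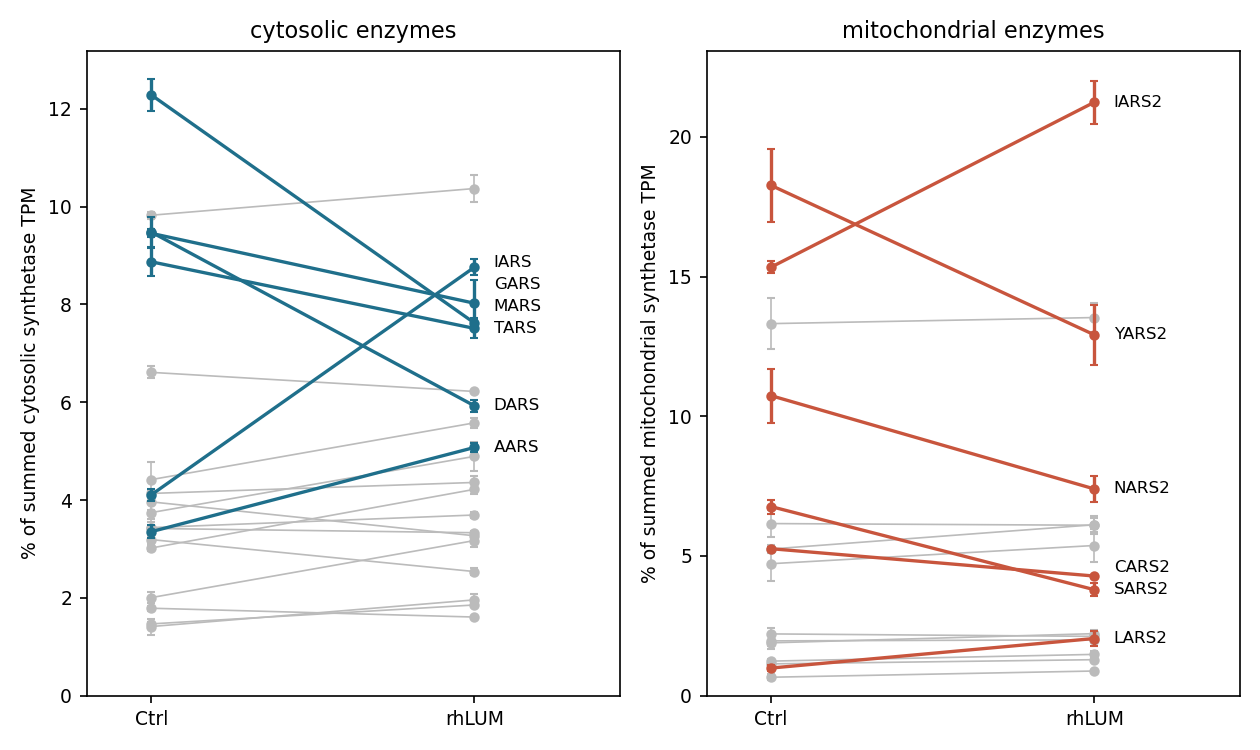
Share of each gene in the summed TPM of the cytosolic (left) and mitochondrial (right) synthetases, in percent, mean and SD of 3 libraries per group, with 6 genes of each set in colour and 1 mitochondrial gene not shown. IARS and IARS2 climb while MARS, DARS, YARS2 and SARS2 drop.

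The genes of the 2 enzymes for the same amino acid did not all move together. In 18 pairs, covering 17 amino acids, the log2 ratio of cytosolic to mitochondrial TPM was higher in all rhLUM libraries than in all Ctrl libraries for 8 pairs, lower for 7, and overlapped for 3. The 15 pairs whose groups were apart are 83.3% of the 18, and the same held for 68.7% of all pairs of tested genes above 0 TPM in every library. With 3 libraries a group the smallest exact permutation p is 0.1, so these ratios are described without a test. In 4 pairs (22.2%) 1 gene was called higher and the other lower, close to the 19.8% of all pairs of tested genes, and in 10 pairs (55.6%) both were called higher, against 19.8%. For serine the log2 ratio of SARS to SARS2 was 0.91, 1.09 and 0.90 in Ctrl and 2.25, 2.22 and 2.40 in rhLUM. The balance of the serine pair's transcripts thus moved towards the cytosolic gene. The asparagine pair, NARS and NARS2, moved towards the cytosolic gene by 0.62, and the methionine pair, MARS and MARS2, towards the mitochondrial gene by 0.94, a log2 difference of -0.94. Of the pairs without opposite calls, tyrosine (YARS over YARS2) differed by 0.89 and leucine (LARS over LARS2) by -0.96.

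**Figure D4:**
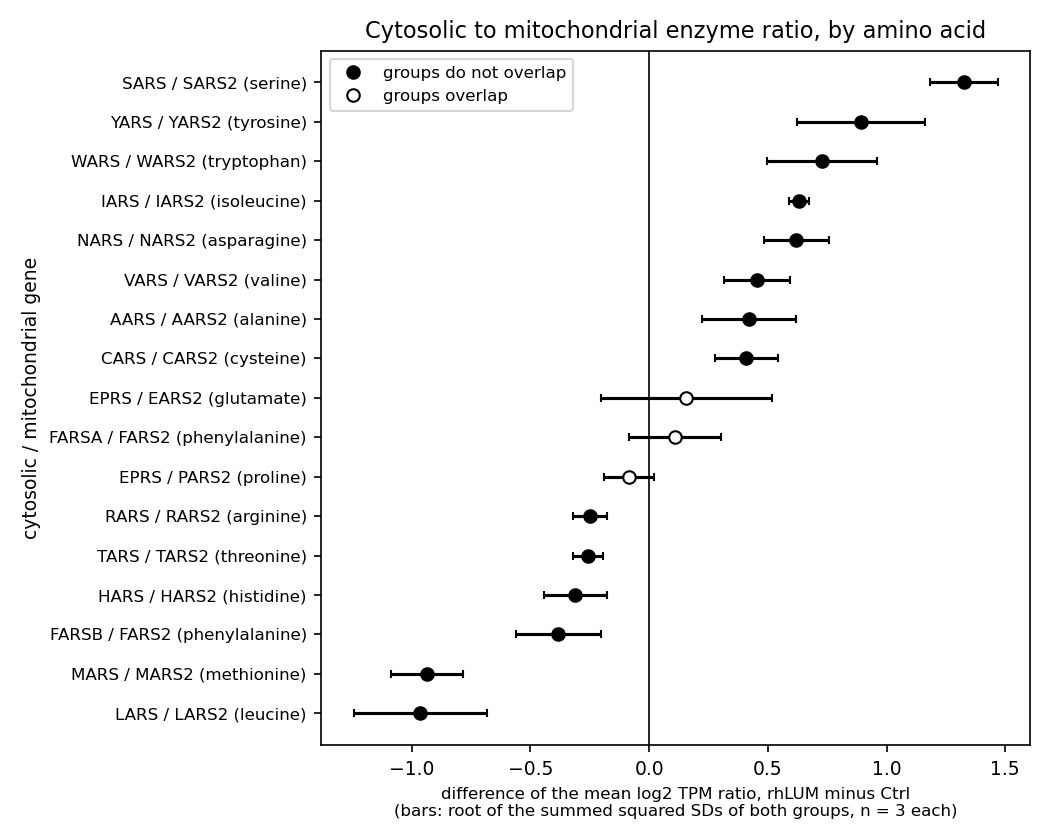
Difference between the groups in the mean log2 ratio of cytosolic to mitochondrial TPM for each pair (horizontal axis, rhLUM minus Ctrl), with bars from the SDs of both groups (n = 3 each), open points where the libraries of the groups overlap, and 1 pair not shown. The pairs shown run from 1.33 for serine to -0.96 for leucine.

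Several of these genes lie head to head with, or overlap, another gene, and the sources used here do not say whether counting used strand, so reads of the shared bases cannot be assigned between them. Exons of MARS overlap those of ARHGAP9 over 519 and those of DDIT3 over 355 of 7028 exonic bases, both on the opposite strand. They also share 63 bases with MIR6758 on the same strand. DDIT3, which encodes the stress factor CHOP, fell too, by 0.50 on the log2 scale. SARS2 shares 349 exonic bases with MRPS12, which starts 348 bases away on the opposite strand and was not called (log2 fold change 0.04, adjusted p = 0.616). SARS2 also shares 1492 of its 3231 exonic bases with a gene model on the same strand, AC011455.2. AARS starts 120 bases from DDX19B, which stood at 8.04 TPM in Ctrl and in rhLUM. HARS and HARS2 start 436 bases apart on opposite strands and share 437 exonic bases, and of this pair HARS2 was called and HARS was not. EARS2 shares 370 exonic bases with UBFD1, which rose by more (1.36), and VARS2 shares 1858 of 8448 with GTF2H4 on the same strand.

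The wider system around charging moved in both directions. Of 11 other genes for charging and proofreading, 6 were higher and 2 lower (median log2 fold change 0.40), but after scaling 4 and 2 (median 0.22), and after the length and GC correction 4 and 4. DTD1, a deacylase that removes D-amino acids from transfer RNA, had 1.13, and QRSL1 and GATC, subunits of the enzyme that makes mitochondrial glutaminyl-tRNA, had 0.64 and 0.69. AARSD1, which edits mischarged alanine transfer RNA, fell by 0.65, and the peptidyl-tRNA hydrolase PTRH2 by 0.32. Of 22 genes of transfer RNA maturation and export 11 were higher and 6 lower (median 0.17, near the 0.16 of all genes), and after scaling 8 and 9. The export receptor XPOT (1.01), the ligase RTCB (0.93), the 3′ processing nuclease ELAC2 (0.95) and the RNase P subunit POP1 (0.60) were higher. Of 19 genes of RNA polymerase III, which transcribes transfer RNA genes, and its factors 12 were higher and 3 lower (median 0.54). POLR3F was at 1.07, GTF3C4 at 0.90 and POLR3C at 0.62, and MAF1, a repressor of this polymerase, was also higher (0.67). The lower ones were GTF3C6 (-0.51), GTF3C2 (-0.42) and POLR3GL (-0.23). After scaling 10 were higher and 4 lower. With the length and GC correction 8 were higher and 3 lower (median 0.22), against 33.8% and 32% of 12850 genes.

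Translation factors, which act after charging, were mixed. Of 7 cytosolic elongation factors 4 were higher and 2 lower (3 and 2 after scaling). EEF1A1, which carries aminoacyl-tRNA to the ribosome, was at 0.50, EEF1G at 0.53 and EIF5A at 0.22. The translocase EEF2 fell by 0.77 and EEF1D by 0.19. After scaling EIF5A was at 0.017 and its call was lost (limma adjusted p = 0.528). Of 9 mitochondrial translation factors 5 were higher and 1, MTIF3, lower (-0.16). The higher ones included GFM2 (0.60), GFM1 (0.27), TSFM (0.38) and MTIF2 (0.23). After scaling 2 were higher and 3 lower.

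ATF4 itself was lower in rhLUM, at 227 ± 3.31 TPM against 269 ± 2.84 in Ctrl (SD, n = 3), a log2 fold change of -0.24 (limma adjusted p = 4.87e-05), and EIF2AK4 fell by 0.50. Of 23 tested genes in the list of ATF4 and its other targets 16 were higher and 6 lower (median 0.45), and after scaling 14 and 6. SLC7A11, the cystine transporter, rose by 0.84. The transcription factors ATF5 (-1.25) and CEBPB (-0.96) and the growth regulator DDIT4 (-0.88) fell. Of 16 genes of eIF2, its kinases, exchange factor and phosphatases, and of regulators of GCN2, 11 were higher and 4 lower. The counts were 7 and 5 after scaling, and 4 and 5 after the length and GC correction. EIF2S1, the phosphorylated subunit, had 1.30, EIF2S3 0.61 and the kinase EIF2AK3 1.25, while PPP1R15A, the stress-induced phosphatase subunit, fell by 0.87. EIF2B5 and EIF2B4, subunits of the exchange factor, fell by 0.46 and 0.33. No phosphorylation or protein was measured. These lists are read against 44.5% higher and 22.3% lower of all genes as deposited, and 32.7% and 32.5% after scaling.

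**Figure D5:**
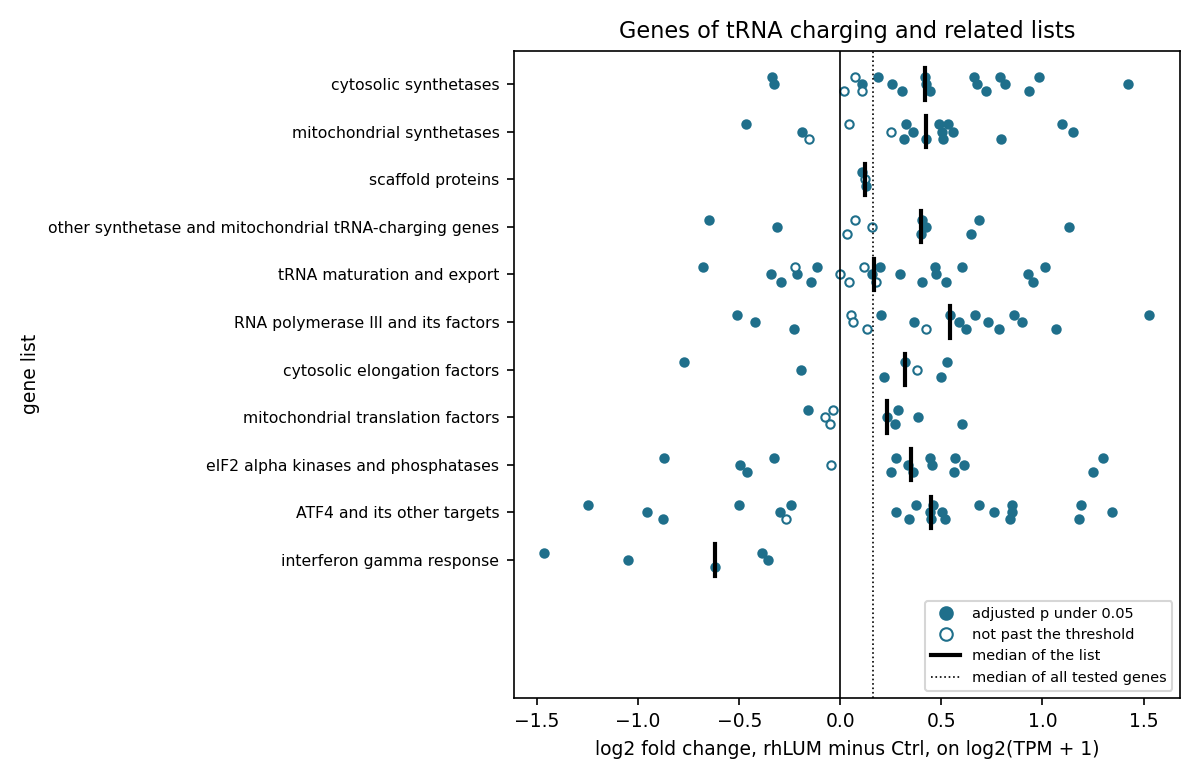
Log2 fold change of every tested gene (points, filled where adjusted p is under 0.05) in the synthetase sets and in related lists, with the median of each list (bars) and of all tested genes (dotted line at 0.16). The cytosolic and mitochondrial synthetases have medians of 0.42, and all 5 tested interferon gamma genes lie below 0.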

How the data were processed

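Per the labels' protocols, poly-A RNA of MHCC97L xenografts was made into libraries with 10 PCR cycles and sequenced as paired reads of 151 bases. The submitters' processing notes name GRCh38 with STAR 2.7.8 and RSEM 1.2.31. The sources used here give no annotation release and do not say whether counting used strand or whether host reads were removed. The values the authors deposited are TPM, per the file headers, a unit that is relative to transcript length and library sum and keeps no depth.

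Groups came from the labels. Symbols on more than 1 row (2210 rows) were left out, those averaging 1 TPM or more were kept, and limma 3.58.1 (R 4.3.3, variance trend) was fitted to log2(TPM + 1) with group as the only term and 4 residual degrees of freedom. The pseudocount understates changes of low genes. The test is two-sided, with Benjamini-Hochberg adjustment over 14781 genes and a threshold of 0.05. The fit was tested on simulated data. Log2 ratios of pairs used TPM without a pseudocount. Gene positions, lengths and GC content came from GENCODE 29, matched by symbol (86.9% of tested genes). Promoter windows are from RefSeq (GRCh38.p14).

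The genes and lists were chosen with earlier results of these data known. All genes found by the rule could be named, apart from an item that is not reported here. Of each related list, up to 4 genes with the smallest p past the threshold were named, plus ATF4, EIF2AK4 and IRF1. Overlapping neighbours, marker genes, TAP1, MAF1 and the other lower genes of short counts were chosen after their values were seen. The alternatives tried were scaling by median of ratios or by upper quartile, rescaling without mitochondrially encoded genes, a pseudocount of 0.1, other filters, a replicate block, no variance trend, a loess correction (span 0.3) for length and GC content of the longest coding transcript, and leaving out each library. The correction with the median over all transcripts was added after seeing the data.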

Additional observations from a re-analysis of the deposited data

How the results depend on the processing

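Every direction of a cytosolic or mitochondrial gene with an absolute log2 fold change of at least 0.25 as deposited was kept under all alternatives. Small rises were not, as follows. With median-of-ratios scaling the log2 fold change was -0.0036 for FARSB, -0.088 for GARS, -0.18 for HARS, -0.12 for QARS, -0.090 for TARS, -0.15 for CARS2, -0.071 for AIMP1, -0.087 for AIMP2 and -0.071 for EEF1E1. In the same order upper quartile scaling gave -0.039, -0.12, -0.21, -0.16, -0.13, -0.18, -0.11, -0.12 and -0.11, and the loess correction with the median over all transcripts, added after seeing the data, -0.20, -0.13, -0.24, -0.071, -0.14, -0.10, -0.20, -0.074 and -0.10. The planned loess correction gave -0.10 for FARSB, -0.093 for GARS, -0.27 for HARS, -0.11 for QARS, -0.25 for TARS, -0.034 for CARS2 and -0.072 for AIMP1. Rescaling without mitochondrially encoded genes gave -0.0036 for GARS, -0.094 for HARS, -0.041 for QARS, -0.0058 for TARS, -0.066 for CARS2 and -0.0031 for AIMP2. HARS ranged from -0.0069, without rhLUM replicate B, to 0.050 when a library was left out. Which scaling suits these tumours was not tested.

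Upper quartile scaling and the median version of the loess correction each left 11 cytosolic and 8 mitochondrial genes higher, against 15 and 12. With the latter the calls of RARS (adjusted p = 0.204), AARS2 (0.0547) and MARS2 (0.271) were lost. Cytosolic genes called lower numbered 6 with upper quartile scaling, 4 with the loess correction and 6 with its median version, against 2. Mitochondrial genes called lower numbered 4 with either scaling and 1 with no filter or without the variance trend, against 2, and 1 to 2 when a library was left out. Scaffold genes called higher, 2 as deposited, numbered 0 with either scaling, with rescaling, without the trend and with the median version of the loess correction, 1 with no filter and with the loess correction, and 0 to 1 when a library was left out. Scaffold genes called lower numbered 1 with upper quartile scaling and with the median version of the loess correction. Of all genes, 34.6% were lower with upper quartile scaling, and with no filter 22.4% were higher and 12.3% lower. Without a library, the calls of TARS, NARS2, VARS2, AIMP1 and AIMP2 were lost in at least 1 fit.

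Replicate letters are shared between the groups. Same-letter libraries showed little common deviation (r = 0.029, -0.023 and 0.084 across genes). This check showed no pairing by letter, but with 3 libraries a group it cannot exclude pairing. With the letter as a replicate block, 15 cytosolic and 12 mitochondrial genes were higher, 1 mitochondrial gene was lower and 1 scaffold gene was higher. Calls of NARS2 (adjusted p = 0.0586) and AIMP2 (adjusted p = 0.0646) were lost. TPM keeps no depth, so no counting error can be given, and the lowest transcripts, such as PARS2 and LARS2, are known least precisely.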
